A study of Homo sapiens with 12 samples.

Results

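In kidney cells with knockdown of the tumour suppressor gene FLCN, some genes differed from nontarget cells in one direction early and in the opposite direction after long culture, and 198 such reversed genes are described here. They were selected on their measured values: the FLCN knockdown to nontarget ratio of the group means, with 1 added to each mean, had to be at least 1.5-fold up in short-term and at least 1.5-fold down in long-term cells, or the other way round. The mean over the 12 libraries had to be at least 10 normalized counts, and the raw counts summed over the 3 long-term knockdown libraries had to be above 5. Of 58288 genes in the table, 13284 met both minimums, and 198 of them (1.49%) were reversed. In 157 the ratio was higher short-term and lower long-term (higher-then-lower genes, 79.3%), and in 41 it was lower short-term and higher long-term (lower-then-higher genes). Because these ratios chose the genes, they are given as a description, without a test.

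The cells were HK2, a long-established human line derived from kidney proximal tubule, and polyadenylated RNA was sequenced from 4 groups of 3 libraries. Each group expressed an shRNA, a short hairpin that reduces mRNA with a matching sequence, either nontarget or against FLCN, in short-term culture of fewer than 30 passages or long-term culture of more than 120 passages by the labels (the paper's methods count passages after clonal selection and give a lower minimum for long-term cells). The comparisons ask what FLCN knockdown does early and what it does after long growth. The labels call the libraries biological replicates, but the clone behind each library is not given. What the shRNA does and what clonal selection does therefore cannot be told apart.

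FLCN encodes folliculin, which is lost in Birt-Hogg-Dubé syndrome, a condition with kidney tumours. With its partners FNIP1 and FNIP2, folliculin activates the GTPases RagC and RagD at the lysosome, which lets mTORC1 phosphorylate the transcription factors TFE3 and TFEB and hold them in the cytoplasm. Without it, these factors enter the nucleus and switch on lysosomal and metabolic genes such as GPNMB and RRAGD.

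Values are the authors' normalized counts, that is, reads per gene divided by a factor for each library, and are listed by group in the order short-term nontarget, short-term knockdown, long-term nontarget, long-term knockdown, with replicates 1 to 3 within each. Total raw counts were 7279890, 6450077 and 6284233 in short-term nontarget, 8151168, 6898602 and 5825779 in short-term knockdown, 7376720, 6262665 and 7592062 in long-term nontarget and 8991051, 6776525 and 6031734 in long-term knockdown libraries. Depth was thus similar in the 4 groups, whose ranges overlap. Replicate 3 stood apart from replicates 1 and 2 of its group most clearly in 2 places: in short-term knockdown the chi-square per degree of freedom, which is 1 for counting error alone, was 3.33 between replicates 1 and 2 but 10.8 and 11.8 against replicate 3, and in long-term knockdown it was 3.69 against 11.9 and 9.88. With all 4 libraries numbered 3 left out, an alternative chosen after seeing the data, the rule gave 138 higher-then-lower genes, 109 of them among the 157, and 54 lower-then-higher genes, 27 of them among the 41.

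FLCN itself was lower after knockdown at both times. Its normalized counts were 88, 115 and 113, then 41, 45 and 39 short-term, and 68, 82 and 84, then 46, 43 and 54 long-term, so knockdown and nontarget libraries did not overlap at either time. In the edgeR fit its log2 fold change was −1.29 short-term (SE 0.174, adjusted p = 0.000112) and −0.68 long-term (SE 0.173, adjusted p = 0.00611), and the ratios of group means, as used for all folds here, were 2.49-fold and 1.62-fold. GPNMB, a lysosomal glycoprotein gene and TFE3 target, rose 8.19-fold short-term, from 43, 36 and 48 to 367, 474 and 221 normalized counts (adjusted p = 6.55e-07). Long-term it rose 1.92-fold, from 37, 34 and 44 to 74, 86 and 64 (adjusted p = 0.0109), and at each time the lowest knockdown library exceeded the highest nontarget library.

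The proximal tubule label was checked against 16 markers. LRP2 (megalin), SLC22A6 and HNF4A had 0 counts in all libraries, and the differentiated-cell genes SLC34A1, AQP1 and ANPEP averaged below 1 normalized count, so these defining markers were absent or nearly so. SLC5A2, the glucose transporter SGLT2 of the differentiated tubule, was present, with 89, 67 and 66, then 87, 70 and 94, then 75, 57 and 76, then 91, 85 and 117 normalized counts. The tubular transcription factor PAX8, with 1115, 1223 and 1017, then 1346, 1430 and 1448, then 1584, 1751 and 1849, then 1035, 1106 and 1245 normalized counts, was present throughout, as were KRT8, KRT18, CDH2, VIM and GGT1. Of the 8 listed distal and collecting duct markers, only CDH16 reached a mean of 10. None of 5 endothelial and none of 5 immune markers did, and PTPRC, CD3E, MS4A1 and KDR had 0 counts throughout.

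The 2 directions were unequal in size. Among all 13284 genes, the ratio was at least 1.5-fold higher for 761 and lower for 654 short-term, and higher for 1235 and lower for 1649 long-term. Of the 761 genes higher short-term, 255 (33.5%) were also higher long-term and 157 (20.6%) were lower. Of the 654 genes lower short-term, 337 (51.5%) were also lower long-term and 41 (6.27%) were higher. Both ratios use their own nontarget group, and these counts are fixed by the rule. A further 19 higher-then-lower genes were left out by the raw count minimum, and 0 lower-then-higher genes were.

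**Figure D1:**
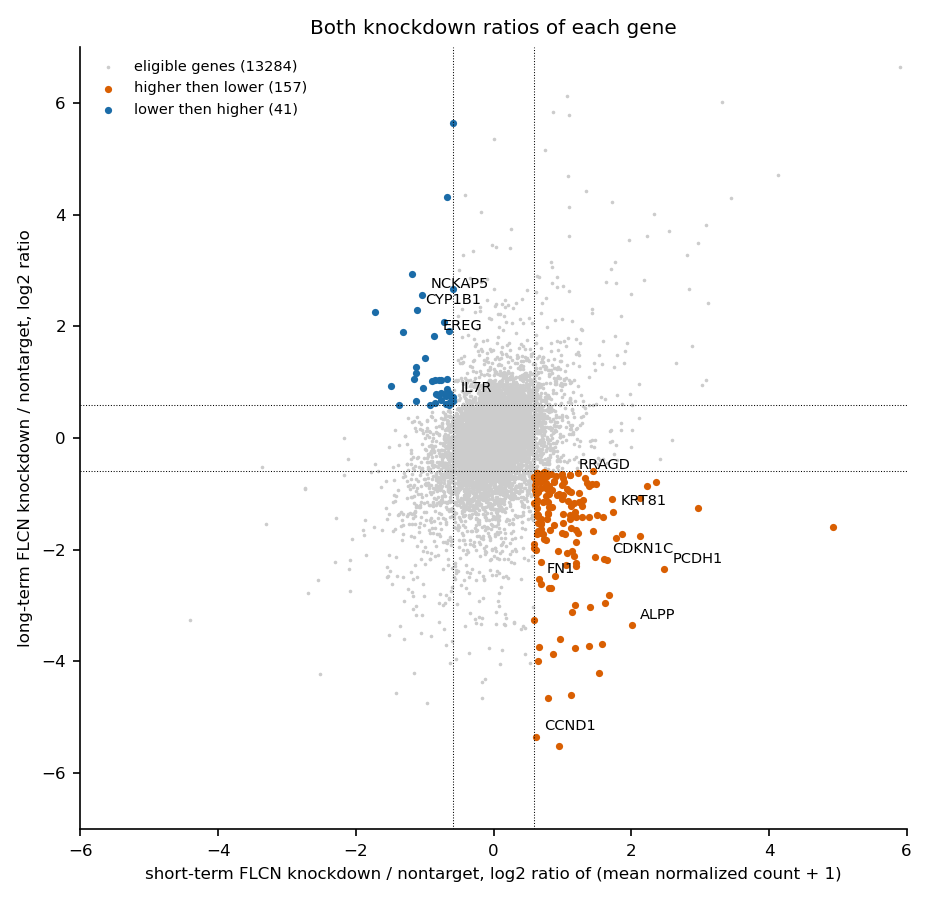
Short-term (x) and long-term (y) log2 ratio of FLCN knockdown to nontarget for each gene that met the minimums, with the 157 higher-then-lower and 41 lower-then-higher genes in colour and 4 genes outside the axes. Reversed genes fill the lower right and upper left beyond the dotted 1.5-fold lines, and the lower right holds more of them.

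In the higher-then-lower genes the median log2 ratio was 0.92 short-term (1.89-fold, range 0.58 to 4.94) and −1.35 long-term (2.55-fold, range −5.51 to −0.58). The long-term ratio was the larger of the pair in 111 genes and the short-term ratio in 46, so the late difference was usually the bigger. Both ratios reached 2-fold in 54. In the lower-then-higher genes the medians were −0.80 (1.74-fold, range −1.72 to −0.58) and 0.93 (1.90-fold, range 0.58 to 5.64), and both reached 2-fold in 9. Levels were modest: the median of the gene means was 40.8 normalized counts in the higher-then-lower and 29.2 in the lower-then-higher genes, against 173 over all 13284 genes. The rule picked genes of low level more often, with 113 of 3136 (3.60%) at a mean of 10 to 50, 68 of 7107 (0.957%) at 50 to 500 and 17 of 3041 (0.559%) at 500 or more.

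Near the limit the choice is a matter of small differences. Just inside were HECW2 (2.71-fold higher short-term, 1.5-fold lower long-term) and MARCH4 (1.5 and 3.71), and just outside BIRC3 (1.49 and 2.32) and MAP3K20-AS1 (1.82 and 1.49). In the other direction EPHA5 (1.5-fold lower, 1.58-fold higher) and AP002449.1 (2.59 and 1.5) were just inside, and SLITRK5 (1.49 and 1.61) and GATD3B (1.49 and 2.02) just outside. Leaving out single libraries in turn kept 68 of the 157 and 15 of the 41 in all 12 cases, so membership of the other 89 and 26 rests on at least 1 library.

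All 198 reversed genes passed the filter on low counts of the edgeR fit, and their calls at an adjusted p below 0.05 are given beside the share over all 13959 genes tested. Of the 157, 101 were called higher short-term, where 784 genes (5.62%) were called in all, and 126 were called lower long-term, where 2210 (15.8%) were. Of the 41, 19 were called lower short-term (657 genes, 4.71%, in all) and 32 higher long-term (1909, 13.7%). Both calls were met by 89 of the 157, where 144 genes (1.03%) were called higher then lower in all, and by 18 of the 41, where 33 (0.236%) were called lower then higher. Neither call was met by 19 and 8. The rule used these same contrasts, so nothing is read from these counts.

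The same holds for the spread of single libraries, counted over the 13284 genes. All 3 short-term knockdown libraries were above all 3 nontarget libraries in 134 of the 157 (14.6% of all genes), and all 3 long-term knockdown libraries were below in 134 (19.9%), with both in 120. In the 41, short-term libraries were all below in 26 (14.9%), long-term libraries all above in 37 (18.7%) and both in 25. These shares too follow from the choice, and nothing is read from them.

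PCDH1, a protocadherin of cell-cell adhesion, led the higher-then-lower genes of a mean of 50 or more by the smaller of its 2 ratios (ENSG00000156453.13, GRCh38 chr5:141853111-141879246, minus strand). Its normalized counts were 9, 17 and 17, then 77, 92 and 84, then 202, 243 and 234, then 48, 37 and 46, which is 5.57-fold higher short-term and 5.09-fold lower long-term. No groups overlapped, and long-term nontarget cells had the highest level, so the late knockdown level was below its own control but above the early control. ALPP, placental alkaline phosphatase (ENSG00000163283.6, chr2:232378534-232382889, plus strand), counted 26, 35 and 31, then 93, 150 and 137, then 63, 58 and 69, then 6, 5 and 5 normalized counts. It was 4.03-fold higher short-term and 10.2-fold lower long-term, and its late knockdown libraries were the lowest of the 12.

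PLEKHA7, a protein of the adherens junction, had 127, 156 and 138, then 449, 595 and 496, then 320, 384 and 349, then 112, 118 and 89 normalized counts. Its ratios were 3.64-fold and 3.28-fold, with no overlap between knockdown and nontarget at either time. NIPAL4, a magnesium transporter-like membrane protein, was 2.90-fold higher short-term and 18.5-fold lower long-term, where its knockdown libraries had 2, 3 and 3 normalized counts. KCNK15, a potassium channel subunit of the 2-pore family, had 65, 64 and 90, then 129, 174 and 309, then 80, 94 and 144, then 24, 19 and 27. LIMS2, a focal adhesion adaptor, was 2.30-fold higher and then 4.70-fold lower. PIK3AP1, an adaptor that recruits PI3-kinase, had 80, 82 and 65, then 155, 199 and 170, then 77, 65 and 69, then 9, 15 and 17. In these 3 genes as well the libraries of knockdown and nontarget stood fully apart at both times.

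Per kilobase of exon the highest mean levels among reversed genes were those of UCA1, FN1, SLC7A5 and EPAS1, with 933, 596, 554 and 411 normalized counts per kilobase. FN1 encodes fibronectin, a matrix glycoprotein (chr2:215360440-215436172, minus strand), and counted 9425, 10015 and 13372, then 18668, 17418 and 15538, then 9399, 10199 and 14015, then 2165, 1980 and 1712. The 1.57-fold short-term difference was small beside the 5.74-fold long-term one, no libraries overlapped, and FN1 left the set without short-term nontarget replicate 1. UCA1, a long noncoding RNA first described in bladder cancer, had 2276, 2842 and 1937, then 3549, 4093 and 3318, then 5720, 6105 and 5430, then 3758, 3854 and 3589. Its knockdown level hardly differed between short and long culture (1.02-fold), while the nontarget level was 2.45-fold higher after long culture.

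In the pathway of FLCN itself, 2 of 44 measured genes of the TFE3/TFEB and FLCN list were reversed. FNIP2, the folliculin partner (chr4:158769138-158908049, plus strand), had 152, 165 and 142, then 309, 374 and 290, then 168, 191 and 152, then 82, 83 and 66 normalized counts (2.11-fold higher, then 2.20-fold lower). RRAGD, which encodes RagD (chr6:89364636-89412270, minus strand), had 94, 90 and 79, then 216, 206 and 150, then 61, 62 and 53, then 28, 37 and 45 (2.16-fold, then 1.58-fold). Both were apart at each time, although RRAGD left the set without long-term knockdown replicate 1. Of the list, 7 genes were called higher and 4 lower short-term, and 6 higher and 14 lower long-term. This and each other list count is to be read beside the shares over all genes, 5.62% higher and 4.71% lower short-term and 13.7% and 15.8% long-term, and lists near these shares show nothing of their own. The paralogs did not share the pattern: FNIP1 had log2 ratios of −0.06 and 0.00, RRAGC 0.04 and −0.40, and neither was called. SQSTM1, an autophagy receptor, was called higher at both times (log2 0.98 and 0.63). GAA, lysosomal alpha-glucosidase, was called lower short-term and higher long-term (log2 −0.51 and 1.04), but its early ratio was under 1.5-fold.

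Among the 34 measured genes of G1/S control, 3 were higher-then-lower and 0 lower-then-higher. CCND1, cyclin D1, which drives entry into S phase with CDK4 and CDK6 (chr11:69641087-69654474, plus strand), had 772, 853 and 804, then 1182, 1173 and 1361, then 924, 1108 and 971, then 22, 25 and 24 normalized counts. Late knockdown libraries were 40.6-fold below late nontarget libraries, whereas the early difference was 1.53-fold, with no overlap at either time, and it was below the limit without short-term nontarget replicate 1 or short-term knockdown replicate 3. CDKN1C, the CDK inhibitor p57 (chr11:2883213-2885773, minus strand), had 289, 269 and 466, then 712, 637 and 1772, then 548, 610 and 1142, then 144, 128 and 237. It was 3.04-fold higher and then 4.50-fold lower, and replicate 3 was the highest of its group in all 4 groups. Without short-term knockdown replicate 3 the early difference was 1.97-fold. TP73, the p53 relative, had 2, 3 and 4, then 5, 8 and 10, then 29, 19 and 43, then 9, 12 and 12, so its early difference lies among very low counts. A cyclin and a CDK inhibitor, with opposite roles, thus had the same order of signs. In the list as a whole 5 genes were called higher and 2 lower short-term, and 7 higher and 12 lower long-term. CDKN1A, the related inhibitor p21, had log2 ratios of −0.02 short-term and −1.56 long-term and was called lower in the latter.

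Growth factor genes of the EGF family held reversed genes of both directions, 3 of 11 measured. TGFA, a ligand of the EGF receptor, had 111, 114 and 118, then 243, 269 and 238, then 104, 84 and 110, then 36, 44 and 47 normalized counts (2.18-fold higher, then 2.32-fold lower). ERBB3, a receptor of the same family, had 15, 20 and 25, then 39, 41 and 29, then 48, 49 and 61, then 9, 6 and 7 (1.78-fold, then 6.44-fold). EREG, epiregulin, another EGF receptor ligand (chr4:74365143-74388751, plus strand), went the other way with 613, 531 and 734, then 340, 232 and 459, then 407, 333 and 292, then 1247, 1252 and 1159. For all 3 genes the knockdown and nontarget libraries did not overlap. EREG was 1.82-fold lower and then 3.54-fold higher, so the 2 ligands TGFA and EREG differed in opposite directions at both times. The receptor genes EGFR (log2 0.42 and −0.21) and ERBB2 (−0.18 and −0.81) were not reversed. Calls in the list were 3 higher and 2 lower short-term and 3 higher and 7 lower long-term.

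WNT ligands gave 2 reversed genes among 18 measured ligands and receptors. WNT5B had 192, 192 and 143, then 327, 262 and 325, then 270, 310 and 399, then 109, 105 and 165 normalized counts (1.73-fold, then 2.57-fold), without overlap. WNT10A, at lower counts, had 13, 10 and 5, then 28, 19 and 21, then 17, 11 and 16, then 1, 2 and 9. Its late difference was 3.13-fold, or 6.27-fold without long-term knockdown replicate 3, where its raw counts fell under the minimum. Its relative WNT5A had log2 ratios of 0.04 short-term and 2.39 long-term, and WNT7B 2.42 and −0.37. The list had 3 genes called higher and 0 lower short-term, and 3 higher and 6 lower long-term.

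In the TGF-beta and BMP list, 2 of 38 genes were reversed. BAMBI, a decoy receptor that dampens TGF-beta signalling, had 7, 17 and 12, then 64, 71 and 44, then 6, 11 and 20, then 7, 7 and 5. The early groups were apart, but the late groups overlapped, and BAMBI left the set without long-term nontarget replicate 3. BMP4, a secreted ligand, had 23, 24 and 30, then 38, 45 and 38, then 16, 18 and 22, then 7, 1 and 7, apart at both times. In the list 4 genes were called higher and 1 lower short-term, and 6 higher and 11 lower long-term.

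Of 37 hypoxia and glycolysis genes, 13 were called higher and 2 lower short-term (5.62% and 4.71% over all genes), and 7 higher and 10 lower long-term (13.7% and 15.8%), and 3 were reversed. EPAS1, which encodes the hypoxia-inducible factor HIF-2 alpha (chr2:46293667-46386703, plus strand), had 2058, 2135 and 2362, then 3607, 4305 and 5429, then 3139, 3102 and 3981, then 1677, 1683 and 2575 normalized counts. It was 2.03-fold higher and then 1.72-fold lower, with no overlap. NDRG1, a hypoxia- and stress-induced gene, was 2.51-fold higher and then 1.64-fold lower. ADM, the vasodilator peptide adrenomedullin, had 77, 68 and 72, then 97, 101 and 145, then 94, 110 and 129, then 7, 7 and 8. Its late difference of 13.4-fold dwarfed the early 1.57-fold. SLC2A3, a glucose transporter, was called in both directions but reached only log2 −0.37 long-term, and the glycolytic enzyme ENO1 was called higher at both times (0.84 and 0.48).

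Epithelial keratin and junction genes gave 5 higher-then-lower genes among 41. KRT81, a hair-type keratin (chr12:52285913-52291534, minus strand), had 64, 38 and 100, then 127, 107 and 443, then 30, 47 and 62, then 14, 24 and 16 normalized counts (3.32-fold, then 2.49-fold), and its early difference was 1.73-fold without short-term knockdown replicate 3. Its paralog KRT86 had 13, 10 and 22, then 26, 17 and 50, then 16, 10 and 20, then 3, 4 and 5, and its early groups overlapped. The neighbouring KRT7, a simple-epithelium keratin, had 66, 60 and 89, then 86, 113 and 134, then 77, 96 and 116, then 26, 20 and 62, and its early groups overlapped as well. KRT81 and KRT86 overlap in the annotation and have similar sequences, so how reads divide between them is uncertain. CLDN4, a tight junction claudin, had 217, 193 and 180, then 354, 348 and 531, then 194, 205 and 278, then 118, 97 and 143. CGN, cingulin of the same junction, had 74, 68 and 79, then 94, 144 and 120, then 72, 59 and 75, then 14, 9 and 8. Both were apart at each time, and the late difference of CGN was 6.15-fold. The list had 6 genes called higher and 4 lower short-term, and 4 higher and 18 lower long-term. CLDN1, another claudin, was called lower at both times (log2 −0.41 and −2.68).

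Of 26 cadherins and protocadherins, PCDH1 and CDH3 were reversed. CDH3, P-cadherin, had 40, 43 and 75, then 158, 150 and 167, then 114, 100 and 116, then 10, 4 and 9 (2.97-fold, then 12.8-fold), without overlap. The kidney cadherin CDH6, in contrast, had 354, 446 and 597, then 926, 1212 and 667, then 1571, 1434 and 2028, then 11769, 11978 and 9615, higher with knockdown at both times. In the list 4 genes were called higher and 6 lower short-term, and 4 higher and 12 lower long-term. Among 26 integrins and laminins 1 gene was reversed, ITGA6, the laminin-binding integrin alpha 6, with 142, 139 and 165, then 264, 221 and 227, then 175, 159 and 157, then 104, 89 and 91. That list had 5 genes called higher and 1 lower short-term, and 5 higher and 12 lower long-term.

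Matrix proteins and their proteases held 6 higher-then-lower genes and 1 lower-then-higher gene of 50. THBS2, thrombospondin 2, a matrix glycoprotein that limits blood vessel growth, had 306, 247 and 360, then 680, 500 and 823, then 645, 609 and 609, then 24, 22 and 28 (2.19-fold, then 24.2-fold). ADAMTS12, a metalloprotease, had 773, 834 and 931, then 1788, 1878 and 1455, then 1849, 1814 and 1593, then 724, 678 and 635. MMP7, matrilysin (chr11:102520508-102530753, minus strand), had 14, 10 and 16, then 44, 44 and 31, then 31, 23 and 58, then 6, 19 and 16. None of these 3 had overlapping knockdown and nontarget libraries. TNXB, a tenascin, was at low counts, with 5, 5 and 8, then 12, 13 and 20, then 19, 17 and 30, then 1, 5 and 10 (3.63-fold lower long-term, 5.75-fold without long-term knockdown replicate 3). MMP13, collagenase 3, sat exactly at the limit short-term (5, 8 and 8 against 6, 5 and 2, which overlap) and was clearly higher long-term (7, 6 and 5 against 43, 67 and 20). The list had 10 genes called higher and 8 lower short-term, and 9 higher and 24 lower long-term. No gene of the collagen list (19 measured) was reversed.

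Membrane transport was represented by 4 of 203 measured solute carriers and 4 of 54 ion channels. SLC7A5, the large neutral amino acid transporter LAT1, had 2137, 1874 and 2371, then 2619, 2422 and 5240, then 3100, 3286 and 4969, then 1024, 880 and 1597 normalized counts. Short-term knockdown replicate 3 was more than 1.5 times either of the others, and SLC7A5 left the set without it. SLC7A7, which exports basic amino acids with a heavy-chain partner, was 2.18-fold higher and then 1.95-fold lower, SLC37A1, a glucose-6-phosphate exchanger, 2.28-fold and 7.90-fold. SLC22A15, a carrier of organic ions, was at the limit, with 11, 12 and 12, then 24, 23 and 7 short-term. Carriers had 14 genes called higher and 11 lower short-term, near the shares of 5.62% and 4.71% over all genes, and 21 higher and 51 lower long-term (13.7% and 15.8% over all genes).

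TRPM2, a calcium-permeable channel opened by ADP-ribose, had 19, 20 and 9, then 44, 57 and 64, then 24, 31 and 23, then 13, 12 and 10, apart at both times. KCNG1, a modulatory potassium channel subunit, had 3, 6 and 4, then 3, 3 and 1, then 2, 1 and 0, then 34, 28 and 55, so only its late level in knockdown cells stood out. Channels had 6 genes called higher and 3 lower short-term, and 5 higher and 16 lower long-term.

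Single genes of other lists followed the higher-then-lower order. KLF5, an epithelial transcription factor, had 169, 176 and 143, then 235, 217 and 294, then 231, 206 and 250, then 90, 106 and 107. L1CAM, a neural cell adhesion molecule also found in kidney epithelium, had 1628, 1668 and 1991, then 2445, 2768 and 3425, then 1241, 1531 and 1963, then 851, 758 and 1204. Neither had overlapping libraries. SEMA3E, a guidance ligand, was 1.57-fold higher and then 2.85-fold lower, while EPHA5 of the same list went the other way. PSMB9, an immunoproteasome subunit, was 1.65-fold higher and then 1.56-fold lower. HIST3H2A, a histone H2A gene, was 2.29-fold and 2.66-fold at low counts. Of 433 measured zinc finger genes 2 (0.462%, against 1.49% of all genes) were reversed, ZNF516 (1.86-fold, 5.55-fold) and ZNF547 (1.55-fold, 1.70-fold), a difference in share that was not tested.

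At a share of 1.49% over all genes, lists of this size can hold 0 reversed genes, and nothing is read from it. Lists with 0 include 50 of DNA replication and mitosis, 34 immediate early and AP-1 genes, 34 interferon-stimulated genes, 33 other growth factors and receptor kinases, 32 of sterol and fatty acid synthesis and 21 HOX genes. Among the replication and mitosis genes 1 was called higher and 1 lower short-term, and 11 higher and 1 lower long-term. HOX genes had 1 called higher short-term and 11 called higher long-term, with 0 called lower at either time (5.62% called higher short-term and 13.7% long-term over all genes).

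CYP1B1, a cytochrome P450 that metabolizes estrogens and xenobiotics, led the lower-then-higher genes of a mean of 50 or more by the smaller of its 2 ratios (ENSG00000138061.11, chr2:38066973-38109902, minus strand). Its normalized counts were 105, 111 and 100, then 46, 55 and 44, then 66, 58 and 39, then 289, 334 and 184, which is 2.16-fold lower and then 4.88-fold higher. Knockdown and nontarget libraries were apart at both times, and late knockdown libraries were the highest of the 12. NCKAP5, a microtubule-associated protein (chr2:132671799-133568463, minus strand), had 39, 30 and 135, then 16, 11 and 71, then 15, 13 and 30, then 138, 126 and 94. Its early groups overlapped because replicate 3 was high in both, and it left the set without short-term nontarget replicate 3 (1.05-fold). Without short-term knockdown replicate 3 it was 4.76-fold. PCOLCE2, an enhancer of procollagen processing, had 97, 99 and 103, then 53, 49 and 57, then 84, 99 and 73, then 175, 178 and 172. Its knockdown and nontarget libraries were apart at both times.

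TSPAN1, a tetraspanin, had 67, 86 and 80, then 44, 44 and 40, then 123, 86 and 111, then 206, 209 and 246. GPC6, a glypican, had 151, 154 and 153, then 100, 85 and 83, then 149, 119 and 128, then 338, 245 and 232. The kinase gene SGK2 had 63, 66 and 68, then 39, 43 and 38, then 47, 44 and 49, then 85, 91 and 67. These 3 genes were apart at both times. DLG4, a scaffold of the postsynaptic density, was 1.78-fold lower and then 1.73-fold higher, and the long noncoding LINC01508 1.74-fold and 2.05-fold. AC079601.1, an antisense transcript, was 1.70-fold and 1.74-fold, and it overlaps PRICKLE1, a planar polarity gene that is itself lower-then-higher. The strand setting of the counting is not given in the sources used here, so reads of overlapping genes may not be separable, and 106 of the 157 and 29 of the 41 genes overlap another annotated gene.

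TFPI2, a secreted inhibitor of serine proteases, had 1396, 1221 and 2224, then 694, 616 and 1241, then 520, 536 and 871, then 961, 905 and 1040 normalized counts. Early groups overlapped through replicate 3, and late groups did not. IL7R, the receptor of interleukin 7, had 799, 835 and 1003, then 537, 537 and 662, then 541, 488 and 538, then 941, 898 and 725, apart at both times. It was the 1 reversed gene among 31 of the cytokine list, where 2 genes were called higher and 4 lower short-term, and 8 higher and 13 lower long-term. EPHA5, an ephrin receptor, was 1.5-fold lower and then 1.58-fold higher.

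In 1 gene, MLANA, both groups of the early comparison held 3 or fewer raw counts in total, so no early fold is given. MLANA, a melanocyte antigen and target of MITF, chosen for mention after its values were seen, had 2, 0 and 1, then 0, 0 and 1, then 1, 3 and 3, then 196, 166 and 133. HRK, a pro-apoptotic BH3 protein singled out in the same way, had 1, 0 and 1, then 51, 62 and 37, then 10, 12 and 11, then 2, 1 and 6. SPTLC3, a subunit of serine palmitoyltransferase also chosen after its values were seen, had 20, 30 and 24, then 13, 11 and 7, then 0, 0 and 0, then 7, 5 and 8. Groups near 0 set the size of a ratio in these genes: 3 of the 4 groups in MLANA and 1 group each in HRK and SPTLC3.

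Single libraries decided whether several named genes met the rule, beyond those given with their genes above. Without short-term knockdown replicate 3, ADM, KRT86, KRT7, KLF5, L1CAM, KCNG1, MMP13 and EPHA5 were no longer reversed. Without short-term knockdown replicate 2 this held for UCA1, BMP4, CGN, IL7R, SLC22A15 and ZNF547, and without replicate 1 of that group for IL7R, SLC22A15 and EPHA5. Leaving out short-term nontarget libraries ended it for BMP4, KRT7 and SLC22A15 (replicate 1), for KRT7, SEMA3E, KCNG1, MMP13 and EPHA5 (replicate 2) and for UCA1, KLF5, IL7R, ZNF547, MMP13 and EPHA5 (replicate 3). Among long-term nontarget libraries the loss followed replicate 1 for TFPI2 and ZNF547, replicate 2 for TFPI2 and UCA1, and replicate 3 for NDRG1, L1CAM and PSMB9. Among long-term knockdown libraries it followed replicate 1 for PSMB9 and KCNG1, replicate 2 for NIPAL4 and DLG4, and replicate 3 for NIPAL4, WNT10A, TFPI2, KCNG1 and HRK. MLANA, SPTLC3 and THY1 were each lost without any of 3 or more libraries.

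How the 4 groups were ordered varied among genes. Of the 157 higher-then-lower genes, 119 were highest in short-term knockdown and 38 in long-term nontarget cells, and 133 were lowest in long-term knockdown and 24 in short-term nontarget cells. Of the 41, 33 were highest in long-term knockdown and 8 in short-term nontarget cells, and 30 were lowest in short-term knockdown and 11 in long-term nontarget cells.

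Long culture was therefore compared within each shRNA, which shares all 4 groups with the rule and is a description. In nontarget cells 78 of the 157 were at least 1.5-fold higher long-term, 8 lower and 71 within 1.5-fold (median log2 0.57), whereas over all 13284 genes 4.14% were higher and 4.74% lower. In knockdown cells 145 were lower long-term, 0 higher and 12 within 1.5-fold (median −1.80), against 12.3% lower and 7.44% higher over all genes. Both shifts together, higher in nontarget and lower in knockdown cells, occurred in 66 genes, among them PCDH1, ALPP, CDKN1C, THBS2 and EPAS1. Another 71 genes, including FN1, CCND1, TGFA, FNIP2 and RRAGD, were within 1.5-fold in nontarget cells and lower in knockdown cells. The 12 genes with higher nontarget and level knockdown values include UCA1 and TP73. The last 8, lower in both, are PDZD2, ACSL5, GSG1, PXDNL, GDF6, FSTL1, PLA2G16 and AOX1. In nontarget cells, then, some of these genes stood at another level after long culture and others stayed within 1.5-fold.

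Among the 41, nontarget cells were lower long-term in 17, higher in 2 and within 1.5-fold in 22 (median −0.49), and knockdown cells were higher in 34, lower in 0 and within 1.5-fold in 7 (median 1.40). CYP1B1, NCKAP5 and EREG are among 10 genes with both shifts, lower in nontarget and higher in knockdown cells. TFPI2 and IL7R are among 7 that were lower in nontarget and within 1.5-fold in knockdown cells. PCOLCE2, GPC6 and SGK2 are among 22 that were within 1.5-fold in nontarget and higher in knockdown cells.

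In the edgeR fit, long culture of nontarget cells called 443 genes higher (3.17%) and 611 lower (4.38%), including 51 and 7 of the 157 and 1 and 10 of the 41. Long culture of knockdown cells called 1601 higher (11.5%) and 2118 lower (15.2%), including 0 and 138 of the 157 and 32 and 0 of the 41. The difference of the knockdown effects between the times was called lower long-term for 1177 genes (8.43%), 145 of the 157 among them, and higher for 695 (4.98%), 37 of the 41 among them. The rule fixes the sign of that difference, and nothing is read from these counts of reversed genes.

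Late knockdown levels can also be set against the early nontarget level, which shows where each gene ended. Of the 157, 97 ended at least 1.5-fold below the early nontarget level, 48 within 1.5-fold and 12 above it (median log2 −0.83). KRT81, CCND1, FN1, CDH3 and THBS2 ended below, PLEKHA7, MMP7, EPAS1 and WNT5B within 1.5-fold, and PCDH1, RELN and UCA1 above. RELN, which encodes the matrix protein reelin, had 72, 67 and 131, then 436, 393 and 363, then 314, 337 and 406, then 197, 155 and 148. Of the 41, 21 ended above, 16 within 1.5-fold and 4 below.

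**Figure D2:**
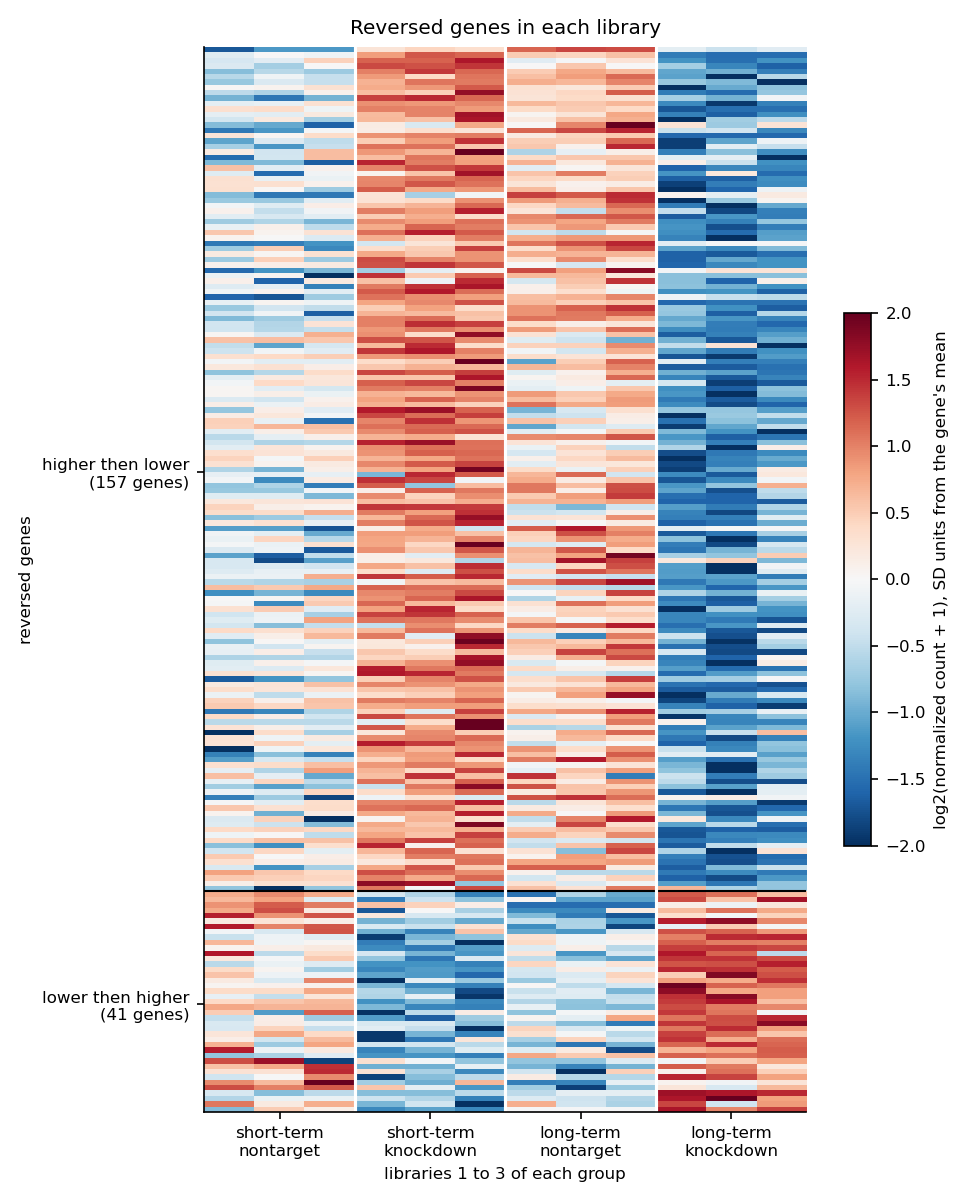
Log2 of normalized count + 1 of each of the 198 reversed genes (rows) in each of the 12 libraries (columns), in SD units from the mean of that gene, with colours ending at 2 SD. Of the 157 higher-then-lower genes 119 were highest in short-term knockdown and 38 in long-term nontarget libraries, and 133 were lowest in long-term knockdown and 24 in short-term nontarget libraries.

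A fibroblast marker, THY1, was among the 157, with 1, 5 and 14, then 14, 22 and 17, then 11, 13 and 13, then 6, 6 and 0 normalized counts. Of the 9 fibroblast markers 4 had a mean of 10 or more. Their sums were 346, 346 and 362, then 380, 386 and 410, then 185, 190 and 234, then 197, 230 and 253, so the sum was lower in both long-term groups. In nontarget cells that drop was carried by LUM, with 164, 189 and 132, then 179, 192 and 108, then 7, 11 and 2, then 87, 100 and 62. LUM was higher with knockdown long-term. PDGFRB averaged 27.3 and 15.3 short-term and 51 and 4.33 long-term, so it was lower with knockdown at both times, and COL1A1 averaged 153 and 195, then 129 and 125. The fibroblast markers thus did not move together, and PDGFRA, COL1A2 and DCN were at or near 0. Sums of the 16 proximal tubule markers, of which KRT8 was the most counted, were 27558, 26046 and 25076, then 30403, 29491 and 35996, then 30419, 29752 and 33456, then 37910, 35611 and 40598. The late excess came from CDH6, and the other markers did not move together. Long-term group means of KRT8, KRT18 and PAX8 were lower with knockdown and those of GGT1, VIM and SLC5A2 higher, while CDH2 was lower with knockdown at both times. Sums of the 8 distal and collecting duct markers averaged 94 in nontarget and 136 in knockdown cells short-term, and 177 and 353 long-term. The late excess came from CDH16, which averaged 128 and 349 long-term. CALB1 (28 and 0.333) and GATA3 (15.3 and 3.67) were lower with knockdown long-term, so these markers did not move together either. In bulk RNA fewer cells of a kind and less RNA per cell cannot be told apart, and the part of cell composition in the reversals was not tested.

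Reversed genes were spread over the genome. The share among measured genes was highest on chromosomes 10 (14 of 531, 2.64%), 21 (2.31%) and 2 (20 of 871, 2.30%) and lowest on chromosomes 22 (0.313%), 16 (0.487%) and 17 (0.506%), and 0 of 21 mitochondrial genes were reversed. Chromosome 2 as a whole was shifted, with a median log2 ratio of 0.30 short-term and 0.18 long-term over its 871 measured genes, and it holds ALPP, FN1, TGFA, EPAS1 and ITGA6. Long-term the shift was larger on chromosome 7 (0.24) and largest for the 21 mitochondrial genes (0.70). With each ratio divided by the median of its chromosome, the rule kept 137 of the 157 and 32 of the 41. Those no longer reversed include FN1, ITGA6, UCA1, SLC22A15, MARCH4 and AOX1 of the 157 and IL7R, TFPI2, MMP13, EPHA5, MLANA, GUCY1A2 and Z74021.1 of the 41. To see whether whole regions moved, the median log2 ratio of the 40 nearest measured genes was taken around each reversed gene. The middle value of these medians was 0.01 short-term and −0.03 long-term around the higher-then-lower genes, and −0.06 and 0.03 around the others. Neighbourhoods passed 1.5-fold only around STOX2 (−0.92 long-term), TGFA (0.60 long-term), NEURL1B (0.59 short-term) and ZNF547 (−0.68 long-term). The region around TGFA was thus higher in the comparison in which TGFA was lower. Those around STOX2, NEURL1B and ZNF547 differed in the same direction as their gene. For ZNF547 the region (−0.68) was close to the gene's own long-term log2 fold change in the edgeR fit (−0.69). The region's value is a median of ratios of group means, and by that measure the gene's own difference was larger than the region's. What part of these differences is regional was not tested. There were 11 pairs of reversed genes within 200000 bases of each other, each pair of like direction, such as WISP2 with KCNK15 and CYP27A1 with WNT10A. Some pairs overlap in the annotation and may share reads, such as KRT86 with KRT81 and PRICKLE1 with AC079601.1. With 79.3% of the reversed genes in 1 direction, most pairs would be alike in any case, and nothing is read from it.

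Over the 12 libraries, genes with the most similar pattern were ranked by the Pearson correlation of log2 values among 10157 genes, as a description of libraries that share 4 groups. PCDH1 was closest to LIMCH1 (r = 0.962, n = 12), AC008894.2 (0.935), PGAM1 (0.921), UCA1 (0.920) and MYO10 (0.915), of which LIMCH1 and UCA1 are reversed genes. ALPP was closest to TTC9 (0.993), followed by FAM84B, LIMS2 (0.975) and CDH3 (0.972), all of them reversed genes. Next came UXS1 (0.97), which is not reversed. The genes most like CYP1B1, MCCC1 (0.962), C6orf89 (0.960) and NBN (0.949) among them, were not reversed, nor were those most like NCKAP5, such as VPS53 (0.940) and ANKFY1 (0.932).

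Gene type and length were close to those of all measured genes. Protein-coding genes made up 90.4% of the 157 and 82.9% of the 41, against 88.3% of all, and the median exon length was 5265 and 4853 bases, against 4875.

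Because TFE3 and TFEB bind E-box sequences, promoter windows of the reversed genes were searched for the E-box CACGTG, which reads the same on both strands. The windows run from 250 bases before to 50 bases after a gene's start (RefSeq, GRCh38.p14). A window was available for 127 of the 198 genes (64.1%), too few for a comparison of shares, and 9 of 103 higher-then-lower and 3 of 24 lower-then-higher windows held the motif, as did 1012 of 9715 (10.4%) of all promoters. The window of FNIP2 did not hold it. Shown with the motif in capitals, 5′ to 3′ on the strand of the gene, are 60 bases of SLC7A5 (chr16:87869605-87869664, minus strand), CGN (chr1:151511182-151511241, plus strand), ITGA6 (chr2:172427208-172427267, plus strand) and the lower-then-higher GUCY1A2, a guanylate cyclase subunit (chr11:107018574-107018633, minus strand), so that genes of both directions can be seen with the same letters.
SLC7A5: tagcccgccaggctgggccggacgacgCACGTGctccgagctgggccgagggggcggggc
CGN: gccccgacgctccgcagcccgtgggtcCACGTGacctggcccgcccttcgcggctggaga
ITGA6: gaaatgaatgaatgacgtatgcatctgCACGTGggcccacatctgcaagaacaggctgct
GUCY1A2: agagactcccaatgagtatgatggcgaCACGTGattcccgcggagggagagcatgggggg

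The AP-1 motif TGANTCA, where N is any base and which is searched on both strands, was included because matrix protease genes are known targets of AP-1. It was found in 4 of 103 and 3 of 24 windows and in 427 of 9715 (4.40%) of all promoters. Sites of E2F, TCF/LEF, TEAD and SMAD factors and the antioxidant response element were also searched, and their counts are not given here. No shares are compared. The 4 stretches below are from MMP7 (chr11:102530782-102530841, minus strand), F3, the clotting initiator tissue factor (chr1:94541950-94542009, minus strand), NCKAP5 (chr2:133568622-133568681, minus strand) and TFPI2 (chr7:93890808-93890867, minus strand), of which MMP7 and F3 are higher-then-lower.
MMP7: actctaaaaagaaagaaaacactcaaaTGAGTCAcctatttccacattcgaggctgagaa
F3: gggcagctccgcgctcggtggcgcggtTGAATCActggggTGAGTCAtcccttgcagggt
NCKAP5: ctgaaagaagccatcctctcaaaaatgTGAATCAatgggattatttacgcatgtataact
TFPI2: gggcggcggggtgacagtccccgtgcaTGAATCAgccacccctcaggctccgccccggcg
F3 had 174, 184 and 158, then 384, 366 and 415, then 378, 358 and 402, then 136, 128 and 169 normalized counts, apart at both times. Matches to either motif thus occur in windows of genes of opposite direction. A match describes letters in this window and says nothing of whether a factor binds there.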

How the data were processed

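PolyA RNA of 12 HK2 libraries was prepared with TruSeq kits and sequenced on a MiSeq. The authors trimmed reads with fastp, mapped them with STAR to GRCh38 and assigned them to genes with featureCounts, and deposited a table in the unit count. The deposited normalized columns, in the unit score, are those counts divided by a DESeq2 (SARTools) factor per library and rounded. 100% were within 1 of count over factor, and the per-library files differed from the table in 0 values. Annotation release and strand setting were not given in the sources used here.

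The rule was applied to the normalized columns. Raw counts were fitted in R 4.3.3 with edgeR 4.0.16 (filterByExpr, TMM, robust quasi-likelihood, prior count 2, 1 model of 4 groups), which kept 13959 genes with 99.8% of the counts, and p-values were two-sided and adjusted by Benjamini-Hochberg. The biological coefficient of variation was 12.0%. The fit was tested on simulated data. Other steps used Python 3.11.15. Gene positions came from GENCODE 29 (55661 IDs of the same version, 2364 of another, 263 unmatched with 0.0126% of counts).

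The genes and lists were chosen with earlier results of these data known. Genes are named if the paper names their RNA, if they lead a direction by the smaller of both log2 ratios at a mean of at least 50 (10 genes) or by mean (3 genes), if they lead a list (up to 4 per direction) or if they sit at the limit (2 inside and 2 outside). FLCN and GPNMB were added as controls.

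Whether replicate numbers pair the groups was checked from the correlation of residuals over 10157 genes. Same-number nontarget and knockdown libraries correlated at 0.518, 0.212 and 0.669 long-term and at −0.0166, 0.218 and 0.0552 short-term, and short-term knockdown libraries at 0.448, 0.288 and 0.664 with long-term nontarget and at 0.448, 0.507 and 0.664 with long-term knockdown libraries. Some libraries of different number correlated more than the weaker of these, though less than the stronger ones. Long-term nontarget replicate 1 correlated at 0.379 with long-term knockdown replicate 2 and at 0.302 with short-term knockdown replicate 2. Across these 3 groups, replicate 3 correlated negatively with replicates 1 and 2. The numbers are thus shared most clearly for replicate 3, and replicates 1 and 2 are less distinct. This touches the long-term comparison, long culture of knockdown cells and the difference between the times. A replicate block was therefore an alternative, beside DESeq2 1.42.0, RLE factors, no filter, other limits and pseudocounts, group medians, TMM-scaled values, division by chromosome medians and leaving out libraries.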

Additional observations from a re-analysis of the deposited data

Results flagged for a closer look

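Knockdown effects differed between short-term and long-term culture by the edgeR test of that difference. The effect was lower long-term for 1177 genes (8.43% of those tested) and higher for 695 (4.98%). Of the 157 higher-then-lower genes 145 were among the former, and of the 41 lower-then-higher genes 37 were among the latter, which the rule makes likely. The 12 higher-then-lower genes that did not pass include GABBR1, PTK2B, OPRL1, ZNF547 and SLC22A15, and the 4 lower-then-higher genes are LXN, AL136164.4, EML2 and Z74021.1. Of the reversed genes named by the rule for names, 59 of 61 passed. The same ratios chose these genes, so nothing is read from this count.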

How the results depend on the processing

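The count of higher-then-lower genes (157) followed the limits of the rule: 68 at a minimum mean of 50, 238 with no minimum mean, 336 at a limit of 1.3-fold and 54 at 2-fold. Leaving out single libraries gave 133 to 174. The count of lower-then-higher genes (41) became 17 at a minimum mean of 50, 171 with none, 152 at 1.3-fold, 9 at 2-fold, 25 with a pseudocount of 5 and 65 with group medians, and 37 to 56 without single libraries. On the TMM scale 154 of the 157 and 36 of the 41 were kept (HECW2, MARCH4, AOX1, MMP13, EPHA5, MLANA, AP002449.1 and Z74021.1 were lost), and with group medians 124 and 33.

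Called genes numbered 1441 in the short-term comparison, and a replicate block raised this to 2359. Leaving out single libraries gave 874 to 1688, with 874 without short-term nontarget replicate 1 and 906 without replicate 2. Long culture of nontarget cells called 1054 genes, 1786 with the block and 581 to 1288 without single libraries (581 without short-term nontarget replicate 1, 645 without replicate 2). Without replicate 3 of all groups, an alternative chosen after seeing the data, these counts were 2000 and 1586. The difference between the times was called for 1872 genes, 2879 with the block and 1463 to 2291 without single libraries. Calls of the long-term comparison (4119, with 3295 to 4521 without single libraries), of long culture of knockdown cells (3719, with 2829 to 3872) and of reversed genes called in both comparisons (107, with 72 to 112) stayed within 1.5 times under all alternatives run. The causes of these shifts were not tested.

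Of 2268 alternative log2 fold changes of the 63 named genes, 2250 were within 1 SD of the reported value, 18 moved by more and 0 changed sign. The SD here is the spread of single libraries within a group, not an error of the fold change. Some alternatives left out a library of the other culture time, which is not part of the comparison. The ratios of these libraries chose the reversed genes, so a kept sign was likely and nothing is read from it. The depth of 5825779 to 8991051 counts limits genes near the minimum mean of 10, where a few reads decide whether 1.5-fold is reached.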
